A study of Mus musculus with 6 samples.

Results

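The respiratory chain genes were the 101 genes, of 55401 in the count table, whose symbols belong to the subunit families of complexes I to V: 88 in the nuclear genome and 13 in mitochondrial DNA. They were taken by symbol alone (Nduf, Sdh, Uqcr, Cox4 to Cox8, Atp5 and the protein-coding mt- genes), and 13 symbols that mark pseudogenes were left out. By symbol, the nuclear members comprised 38 genes of complex I, 4 of complex II, 8 of complex III, 18 of complex IV and 18 of complex V, with Ndufa4 and its paralog Ndufa4l2 as a further pair associated with complex IV. Among these, Ndufa11b, Ndufb4c and Ndufs6b (complex I) and Cox6c2 (complex IV) are annotated as processed pseudogenes although their symbols do not say so, and Atp5o is present under a pair of identifiers (complex V). The 13 mitochondrial members comprised 7 subunits of complex I, 1 of complex III, 3 of complex IV and 2 of complex V. Cox4i1, the ubiquitous form of subunit 4 of complex IV, is not among the 101 because no FPKM value was used for it here. Its counts serve as the partner of Cox4i2.

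RNA was measured in 3 tumours of epithelioid hemangioendothelioma (EHE), a vascular cancer of endothelial cells, which lay on the peritoneal surface, and in 3 livers. The series describes the tumours as those of a genetically engineered mouse model, and the labels give the strain of both groups as C57BL6 but no allele, driver, age or treatment for either group. Separate animals are not stated for the samples of either group. The p-values below therefore reflect spread among these samples alone, and it may be technical. Tumour state, tissue and body site differ together between the groups and cannot be told apart.

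Complexes I to IV pass electrons to oxygen and pump protons across the inner mitochondrial membrane, and complex V, the ATP synthase, uses the gradient to make ATP. Complex II is wholly nuclear-encoded, while the catalytic cores of complexes I, III and IV and the proton channel of complex V include subunits made from mitochondrial DNA. Several small subunits of complex IV exist as paralogs with restricted expression: Cox6a2, Cox7a1 and Cox8b are the heart and skeletal muscle forms, Cox4i2 is a lung and low-oxygen form, and Cox6b2, Cox7b2 and Cox8c are testis forms. Liver is rich in mitochondria and uses the ubiquitous forms.

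Libraries held between 33881392 and 40277346 counts. Liver 2 stood apart, with counts in 33274 genes, against 19767 and 19001 in livers 1 and 3 and 22710 to 24722 in tumours. Of its values between 1 and 10 counts 55.0% were even, against 66.7% to 70.7% in the other libraries. The level given below is the count scaled to library size (CPM) with the library sizes corrected by trimmed means of M values (TMM), whose factors were between 1.52 and 1.62 in tumours and between 0.61 and 0.68 in livers. Tumours were compared with livers by edgeR's quasi-likelihood test over 17387 genes, and a gene was called at a Benjamini-Hochberg adjusted p under 0.05. The scaling matters for every statement on the family as a whole: the median log2 fold change of all tested genes was 0.10 under TMM and 1.38 when libraries were scaled by their total counts alone, a shift of 1.28. Counts and medians of gene groups are therefore given under both. Identity of the tissues was clear in the marker lists. The 12 hepatocyte markers summed to 21.0, 24.0 and 12.6 CPM of total counts in tumours 1 to 3, against 126900, 116200 and 152900 in livers 1 to 3, and the 10 endothelial markers to 6469, 3700 and 6000 in tumours, against 139, 186 and 174 in livers. Skeletal muscle transcripts were present in all 3 tumours and most abundant in tumour 2. The 15 muscle markers summed to 3141, 25850 and 5890 CPM of total counts in tumours and to 1.05, 2.21 and 0.91 in livers, with Myh1 at 0 counts in every liver.

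Under TMM scaling, 77 of the 97 tested members were lower in tumours than in livers, 6 were higher and 14 did not pass the test, while under library totals 5 were lower, 9 were higher and 83 did not pass. Across all tested genes 28.7% were called lower and 29.5% higher under TMM, and 12.5% lower and 61.5% higher under library totals. The members' median log2 fold change was -1.43 under TMM, against 0.10 for all tested genes, and -0.16 under library totals, against 1.38 for all tested genes. The members' median lay below that of all tested genes under either scaling. Both medians moved by nearly the same amount between the scalings, so the second scaling gives no separate support for this gap. The 5 lower under both scalings were Uqcrq, Ndufa4, Uqcr11, Sdhd and Cox6a1, and the 6 higher under both were the paralogs Cox6a2, Cox8b, Ndufa4l2, Cox7a1, Cox4i2 and Cox6b2. With tumour 2 left out, 89 members were lower and 6 higher under TMM, and the median was -1.83. Without liver 2, 65 were lower and 6 higher, and without libraries 2 of both groups 89 were lower and 6 higher. Levels of the 2 groups did not overlap for 89 members under TMM, 83 of them lower in tumours and 6 higher, against 33.1% of all tested genes lower without overlap and 35.1% higher. Under library totals 5 were lower without overlap and 9 higher, against 14.0% and 66.5% of all tested genes. In bulk tissue, fewer cells of a type and less RNA per cell cannot be told apart. The 4 members not tested were the second identifier of Atp5o, Ndufa11b, Cox7b2 and Cox8c.

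**Figure D1:**
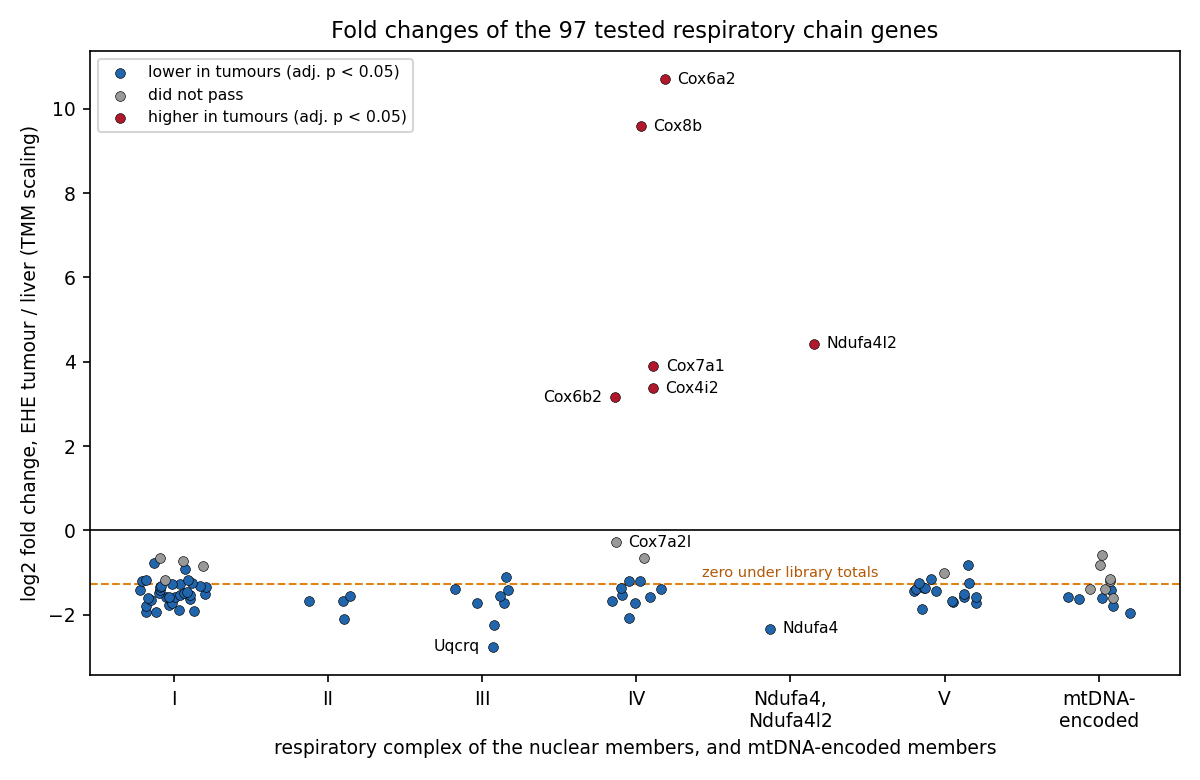
Log2 fold change of tumours over livers (TMM scaling, vertical axis) for the 97 tested members, grouped by complex for nuclear members and with mitochondrially encoded members at the right. Blue points passed the test as lower in tumours, red as higher and grey did not pass. The dashed line marks where a gene unchanged under library totals falls, and most members lie near it, while 6 paralogs stand 3.16 or more above 0.

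Tumour 2 differed from the other tumours in these genes. It had the highest level of the 3 tumours for 90 of the 97 tested members and, in CPM of total counts, the highest of all 6 libraries for 52. In tumours 1 and 3, 66 of the 97 lay below every liver on that scale. Nuclear members together took 0.696%, 1.36% and 0.731% of all counts in tumours 1 to 3, against 1.19%, 1.06% and 0.897% in livers 1 to 3, so that tumour 2 exceeded all livers and tumours 1 and 3 lay below them. Tumour 2 also had the highest sums of muscle, leukocyte, adipocyte and mesothelium markers among the tumours. Leukocyte markers summed to 1309, 4800 and 1139 CPM of total counts in tumours, against 406, 129 and 247 in livers, and adipocyte markers to 158, 515 and 40.1 in tumours and 3.92, 9.36 and 7.35 in livers. Within the adipocyte list, Ucp1, Cidea and Elovl3 were highest in tumour 1 among the tumours, and the others in tumour 2. Elovl3 had 40, 2 and 4 counts in tumours and 30, 92 and 147 in livers. Markers of mesothelium, the lining of the peritoneum, summed to 110, 323 and 106 in tumours and 18.0, 7.11 and 2.25 in livers. The part of these cells in the members' levels was not tested.

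**Figure D2:**
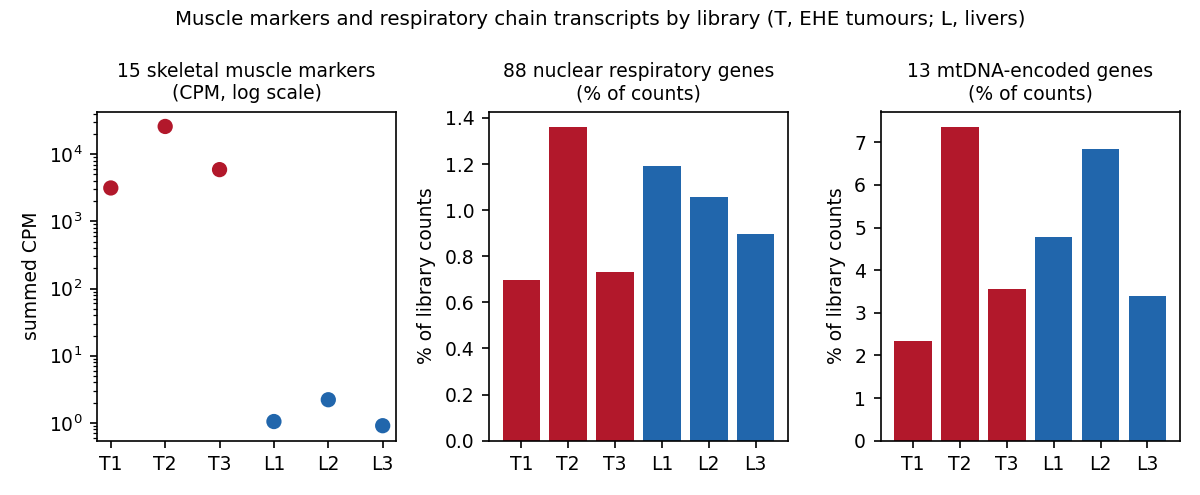
Share of all counts taken by nuclear and by mitochondrially encoded members in each library, tumours left of livers. Tumour 2 is the highest tumour in both, with 1.36% for nuclear and 7.36% for mitochondrially encoded members.

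Complex I, which oxidises NADH, had 33 of its 37 tested nuclear genes lower in tumours under TMM, against 28.7% of all tested genes. The other 4 (Ndufa12, Ndufb2, Ndufb4c and Ndufs7) did not pass. The processed pseudogene Ndufs6b is among the 33 and the processed pseudogene Ndufb4c among the 4. The median log2 fold change of the 37 was -1.47 under TMM and -0.19 under library totals. On the latter scale 1 gene, Ndufa11, was called higher, against 61.5% of all tested genes. Ndufb11, an accessory subunit of the membrane arm, had 44.1, 83.2 and 55.3 TMM-scaled CPM in tumours 1 to 3, against 285, 200 and 207 in livers 1 to 3. The log2 fold change was -1.92 (SE 0.30, adjusted p = 0.00141, edgeR), and -0.64 with an adjusted p of 0.0752 under library totals. Ndufa6, a small subunit of the matrix arm, had 35.0, 60.8 and 31.1 CPM in tumours and 189, 162 and 130 in livers, with a log2 fold change of -1.92 (SE 0.31, adjusted p = 0.00165, edgeR), and -0.65 with an adjusted p of 0.0827 under library totals. For both genes every tumour lay below every liver under TMM. In CPM of total counts the groups overlapped through tumour 2. There Ndufb11 had 127.8 in tumour 2 against 126.5 in liver 3, and Ndufa6 had 93.5 against 79.3. Ndufs7, which carries the iron-sulfur cluster nearest to the ubiquinone site, was the complex I subunit nearest to no change under TMM. It had 37.2, 96.0 and 33.7 CPM in tumours, against 103, 85.7 and 72.8 in livers, and the groups overlapped through tumour 2. Its log2 fold change was -0.65 (adjusted p = 0.222, edgeR) under TMM and 0.62 (adjusted p = 0.206) under library totals. Without tumour 2 it was -1.29 under TMM with an adjusted p of 0.00124.

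Complex II, succinate dehydrogenase, also serves the citric acid cycle, and its 4 subunits were all lower in tumours under TMM, against 28.7% of all tested genes. Sdhd, a membrane anchor, was called lower under both scalings. It had 51.0, 84.3 and 48.5 CPM in tumours and 311, 234 and 245 in livers, with log2 fold changes of -2.10 (SE 0.28, adjusted p = 0.000743, edgeR) under TMM and -0.82 (adjusted p = 0.0235) under library totals. Sdhc, the other anchor, had 84.0, 140 and 75.6 CPM in tumours and 369, 302 and 291 in livers. Sdha, the flavoprotein that holds the active site, had 153, 290 and 140 CPM in tumours and 565, 678 and 615 in livers. Sdhb, the iron-sulfur subunit, had 58.6, 173 and 49.9 CPM in tumours and 303, 297 and 231 in livers. All 4 genes separated the groups without overlap on this scale. The log2 fold changes of Sdhc, Sdha and Sdhb were -1.68, -1.67 and -1.56 under TMM (adjusted p = 0.00236, 0.00469 and 0.029, edgeR). Under library totals they were -0.41, -0.40 and -0.30, with adjusted p of 0.214 or more. The Sdhb call was lost without any of the libraries other than tumour 2 (adjusted p from 0.0536 to 0.086).

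Complex III, which passes electrons to cytochrome c, held the largest fall among the members. Uqcrq, a small structural subunit, had 49.8, 115 and 57.7 TMM-scaled CPM in tumours and 682, 433 and 392 in livers. Every tumour lay far below every liver. Its log2 fold change was -2.76 (SE 0.42, adjusted p = 0.00127, edgeR) under TMM and -1.48 (adjusted p = 0.0113) under library totals. In the deposited FPKM, a per-length scale, Uqcrq stood at 156, 332 and 175 in tumours and at 895, 589 and 531 in livers. Against Uqcrb, another small subunit of the same complex, the ratio of counts was 0.964, 1.25 and 1.13 in tumours and 2.87, 2.09 and 1.99 in livers. This compares genes within each library and does not depend on scaling. Uqcrq was taken for its large fall, so the ratio gives no separate support for it. Of the 50-base windows of Uqcrb transcripts, 25.4% also occur in transcripts of other genes. Uqcr11, also a small subunit, had 27.2, 59.7 and 31.7 CPM in tumours and 254, 171 and 139 in livers. It was called lower under TMM (log2 fold change -2.25, adjusted p = 0.00219, edgeR) and under library totals (-0.97, adjusted p = 0.0451), although on that scale tumour 2, at 91.8, lay above liver 3, at 84.9. Uqcrc1, a core subunit of the matrix side, was nearest to no change under TMM. It had 117, 245 and 84.4 CPM in tumours and 332, 330 and 293 in livers. Its log2 fold change was -1.10 (adjusted p = 0.0492, edgeR) under TMM, 0.17 (adjusted p = 0.697) under library totals, and -1.65 without tumour 2. The call was lost without any of the other 5 libraries (adjusted p from 0.0958 to 0.14). The median of the 8 nuclear subunits was -1.63 under TMM and -0.35 under library totals.

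In complex V, 16 of 17 tested nuclear genes were lower in tumours under TMM, against 28.7% of all tested genes, and 1, Atp5k, did not pass. Their median was -1.43 under TMM and -0.15 under library totals. Atp5a1, the alpha subunit of the catalytic head, had 412, 817 and 346 CPM in tumours and 1320, 1425 and 1334 in livers. The groups were apart on this scale but overlapped under library totals. The log2 fold change was -1.37 (adjusted p = 0.018, edgeR) under TMM and -0.10 (adjusted p = 0.811) under library totals. That call was lost without tumour 1 or any liver (adjusted p from 0.0504 to 0.0627). Atp5md, which helps to join the enzyme into dimers, had 27.1, 53.6 and 39.3 CPM in tumours and 194, 98.2 and 100 in livers, with a log2 fold change of -1.71 (adjusted p = 0.00621, edgeR) under TMM and -0.42 (adjusted p = 0.311) under library totals.

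The c subunit of complex V, which forms the rotating ring, is made from 3 genes with the same mature protein, and all 3 were called lower under TMM. Atp5g3 had 91.1, 168 and 88.4 CPM in tumours and 480, 395 and 385 in livers (log2 fold change -1.86, adjusted p = 0.00212, edgeR). Atp5g1 had 38.8, 122 and 44.6 CPM in tumours and 228, 168 and 184 in livers (log2 fold change -1.50, adjusted p = 0.026, edgeR), and -2.21 without tumour 2. Atp5g2 had 74.7, 63.6 and 64.0 CPM in tumours and 140, 109 and 111 in livers (log2 fold change -0.83, adjusted p = 0.00616, edgeR). Under library totals Atp5g2 turned to 0.45 and was called higher (adjusted p = 0.0456), while Atp5g3 stood at -0.58 (adjusted p = 0.112) and Atp5g1 at -0.22 (adjusted p = 0.663). Differences between the 3 genes were not tested. Within libraries, the ratio of Atp5g2 to Atp5g3 counts was 0.821, 0.379 and 0.724 in tumours and 0.292, 0.277 and 0.287 in livers, so every tumour exceeded every liver, and tumour 2 was nearest to the livers. Of the 50-base windows of Atp5g2 transcripts, 38.3% also occur in transcripts of other genes, so its counts are less certain than those of Atp5g3, which shares none.

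Complex IV, cytochrome c oxidase, was where members moved in opposite directions. Of its 16 tested nuclear genes, 9 (with the processed pseudogene Cox6c2 among them) were lower in tumours and 5 higher under TMM, and Cox6c and Cox7a2l did not pass, while under library totals 1 was lower and 6 were higher. Among all tested genes 28.7% were lower and 29.5% higher under TMM, and 12.5% lower and 61.5% higher under library totals. The part called higher in complex IV under TMM thus lay near that of all tested genes. The 5 that were higher under both scalings were Cox6a2, Cox8b, Cox7a1, Cox4i2 and Cox6b2. The muscle forms came first. Cox6a2, the muscle form of subunit 6a (mouse chr7:128205435-128206387, GRCm38), had 2186, 19910 and 3492 counts in tumours and 0, 4 and 2 in livers. Cox8b, the muscle form of subunit 8 (chr7:140898945-140900446), had 924, 5802 and 1259 counts in tumours and 2, 2 and 0 in livers. Cox7a1, the muscle form of subunit 7a (chr7:30184144-30186078), had 322, 3328 and 493 counts in tumours and 48, 30 and 35 in livers. Tumour 2 had by far the most of each, and every tumour exceeded every liver, with the smallest gap for Cox7a1, at 5.27 TMM-scaled CPM in tumour 1 against 1.95 in liver 1. Fitted log2 fold changes were 10.70 (SE 1.41, adjusted p = 0.000684), 9.58 (SE 1.21, adjusted p = 0.000568) and 3.90 (SE 0.97, adjusted p = 0.0118) by edgeR. The first and second rest on 6 and 4 liver counts and depend on the prior count. Without tumour 2 the values were 9.06, 8.24 and 2.08. With limma-voom, Cox7a1 did not pass (3.08, adjusted p = 0.152), nor did it without the low-count filter (4.01, adjusted p = 0.11, edgeR).

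The ubiquitous partners went the other way under TMM. Cox6a1 had 98.6, 73.7 and 90.1 TMM-scaled CPM in tumours, against 439, 349 and 312 in livers, and it was called lower under TMM (log2 fold change -2.07, adjusted p = 0.000342, edgeR) and under library totals (-0.79, adjusted p = 0.0155). Tumour 2, the highest tumour for most members, was the lowest for Cox6a1. Cox8a had 108, 82.8 and 93.5 CPM in tumours and 362, 290 and 284 in livers, again with tumour 2 lowest, and a log2 fold change of -1.72 (adjusted p = 0.000497, edgeR) under TMM and -0.44 (adjusted p = 0.0816) under library totals. Cox7a2 had 46.7, 54.3 and 41.2 CPM in tumours and 158, 113 and 103 in livers, with a log2 fold change of -1.39 (adjusted p = 0.00154, edgeR) under TMM and -0.11 (adjusted p = 0.636) under library totals.

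The share of the restricted form within each pair, in counts per kilobase of exon, compares genes within a library and does not depend on scaling. Cox6a2 made up 27.3%, 82.7% and 39.1% of the Cox6a2 and Cox6a1 pair in tumours 1 to 3, against 0%, 0.0513% and 0.0274% in livers 1 to 3. Cox8b made up 19.4%, 67.3% and 27.1% of its pair with Cox8a in tumours, against 0.0386%, 0.0514% and 0% in livers. Cox7a1 made up 16.6%, 64.9% and 25.3% of its pair with Cox7a2 in tumours, against 2.13%, 2.00% and 2.41% in livers. Without tumour 2 the difference in mean share was 23.2 percentage points for Cox8b and 18.8 for Cox7a1, against 37.9 and 33.4 with all libraries. The 3 muscle forms thus ranked the tumours alike, with tumour 2 first, tumour 3 next and tumour 1 last, and in tumour 2 each was the more abundant form of its pair. The sum of the 15 muscle markers ranked the tumours in the same order. Not every marker did, since Myh2 had 194 CPM of total counts in tumour 1 and 160 in tumour 3. Relative to Ckm, the creatine kinase of muscle, which had 6203 to 60556 counts in tumours, Cox6a2 counts stood at 0.352, 0.329 and 0.328 in tumours 1 to 3, Cox7a1 at 0.0519, 0.055 and 0.0463, and Cox8b at 0.149, 0.0958 and 0.118. With the other muscle genes given next, ratios were less even by highest over lowest tumour, except that of Cox8b to Acta1. Relative to Acta1, the skeletal muscle actin, Cox6a2 stood at 0.0443, 0.0716 and 0.0439. On the same basis Cox7a1 stood at 0.00653, 0.012 and 0.00619 and Cox8b at 0.0187, 0.0209 and 0.0158. Relative to Mb, which encodes myoglobin, Cox6a2 stood at 0.542, 0.424 and 0.606. Against Mb, Cox7a1 stood at 0.0799, 0.0709 and 0.0856 and Cox8b at 0.229, 0.124 and 0.219. Of the 15 muscle markers, 14 were called higher in tumours, against 29.5% of all tested genes. Tnnc2, the least abundant, had 2, 7 and 2 counts in tumours and 0 in livers. Of the 7 cardiac markers, 2 were called higher in tumours, near the share of all tested genes. The cardiac markers summed to 40.5, 248 and 23.3 CPM of total counts in tumours and 0.230, 2.48 and 0.253 in livers. Myh7, which slow skeletal fibres also express, gave most of the tumours' sums, with 1570, 8656 and 675 counts in tumours and 1, 11 and 3 in livers. Actc1 had 4, 542 and 44 counts in tumours and 0, 7 and 2 in livers, Tnni3 had 26, 106 and 137 in tumours, against 6, 3 and 0 in livers, and Nppa had 0 in every library. Brown fat also uses Cox7a1 and Cox8b, and its defining gene Ucp1 had 646, 4 and 2 counts in tumours and 0 in each liver. The part of skeletal muscle, heart and brown fat cells in these isoform shares was not tested.

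**Figure D3:**
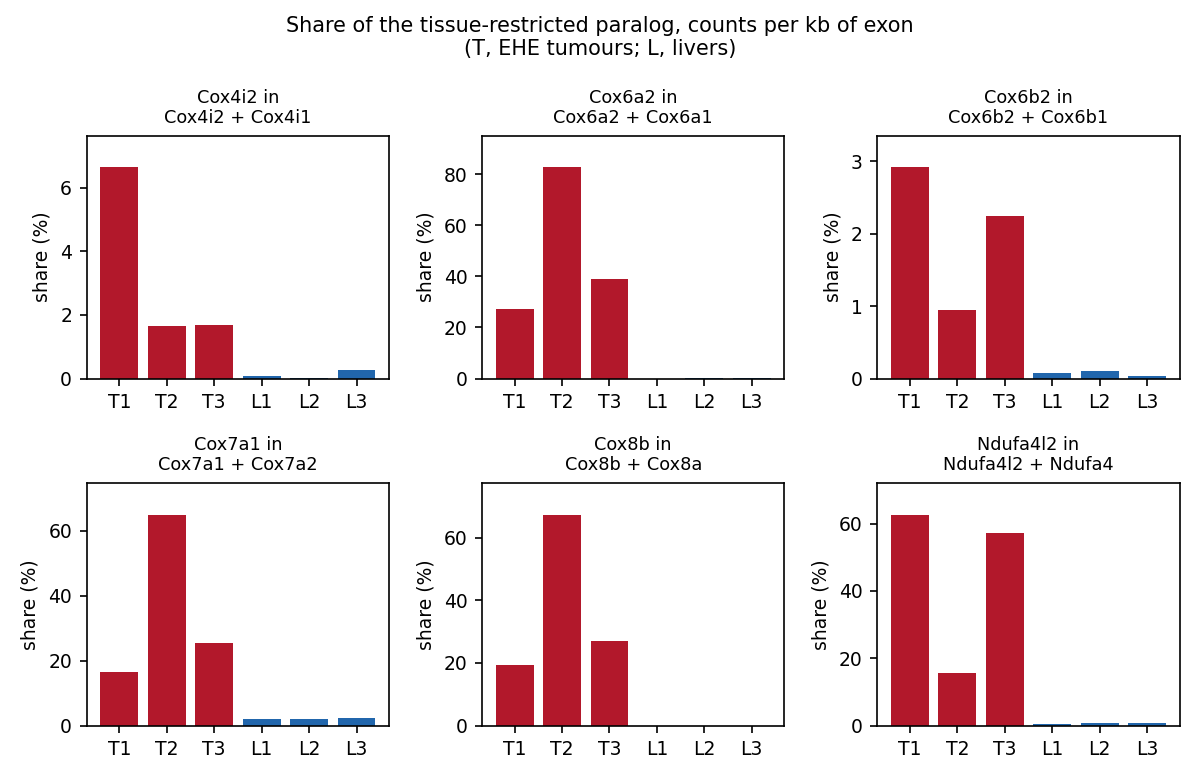
Share of the restricted form in each paralog pair, in percent of counts per kilobase, for every library with tumours left of livers. Cox6a2, Cox8b and Cox7a1 peak in tumour 2, whereas Ndufa4l2 is lowest in tumour 2 among the tumours.

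The promoters of 68 of the 88 nuclear members were in the RefSeq promoter table (GRCm38.p6, 250 bases before to 50 after each gene's start). Those of Cox8a and Cox8b are shown as a ubiquitous form with its muscle partner, and those of Cox6a1 and Ndufa4 because these genes fell under both scalings while their paralogs rose. Capitals mark matches on either strand for every motif searched other than the Sp1 motif GGGCGG. Sp1 matches were left in small letters, and Cox6a1 holds that motif as well. In Cox6a1 they mark the NRF1 motif, which reads GCGCA, then any base, then GCGC. In Cox8a they mark the ETS motif CCGGAAGT. In Cox8b they mark the E-box CAGCTG and the TATA box, read here as TATAAA. Ndufa4 has no capitals, since it holds none of the 6 motifs searched. All 4 genes lie on the minus strand, and the sequences read 5′ to 3′ along the gene. The regions are chr5:115348909-115349208 for Cox6a1, chr19:7217567-7217866 for Cox8a, chr7:140900397-140900696 for Cox8b and chr6:11907401-11907700 for Ndufa4.
Cox6a1: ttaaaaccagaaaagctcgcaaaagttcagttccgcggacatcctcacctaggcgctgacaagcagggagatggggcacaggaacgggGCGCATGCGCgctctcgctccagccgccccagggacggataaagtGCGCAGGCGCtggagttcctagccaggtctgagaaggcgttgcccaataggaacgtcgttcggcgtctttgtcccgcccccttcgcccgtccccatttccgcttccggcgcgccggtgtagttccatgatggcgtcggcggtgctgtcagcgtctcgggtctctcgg
Cox8a: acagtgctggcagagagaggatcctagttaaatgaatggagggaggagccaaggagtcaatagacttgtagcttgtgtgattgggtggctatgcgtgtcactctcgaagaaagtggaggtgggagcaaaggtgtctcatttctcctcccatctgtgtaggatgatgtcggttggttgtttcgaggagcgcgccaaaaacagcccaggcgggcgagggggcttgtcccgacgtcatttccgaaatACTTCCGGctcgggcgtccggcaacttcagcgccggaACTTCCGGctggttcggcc
Cox8b: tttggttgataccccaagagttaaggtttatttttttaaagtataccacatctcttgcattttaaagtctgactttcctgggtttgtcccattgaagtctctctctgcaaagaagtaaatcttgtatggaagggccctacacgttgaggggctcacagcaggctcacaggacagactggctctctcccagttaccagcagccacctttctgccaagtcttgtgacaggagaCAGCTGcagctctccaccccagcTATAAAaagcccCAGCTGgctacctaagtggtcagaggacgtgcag
Ndufa4: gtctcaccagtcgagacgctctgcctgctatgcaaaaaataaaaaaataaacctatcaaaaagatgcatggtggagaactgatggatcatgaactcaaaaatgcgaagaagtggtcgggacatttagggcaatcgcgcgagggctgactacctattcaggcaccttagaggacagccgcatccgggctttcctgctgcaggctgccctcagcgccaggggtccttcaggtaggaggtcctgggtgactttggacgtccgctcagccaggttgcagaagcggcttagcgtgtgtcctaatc

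Cox6a1 holds the NRF1 motif at 2 places, Cox8a the ETS motif at 2 places, and Cox8b the E-box at 2 places with 1 TATA box between them. NRF1, ETS and YY1 motifs are known from promoters of respiratory chain genes, and E-boxes of this kind are bound by muscle regulatory factors. Among the 68 member promoters, 17 (25.0%) held the NRF1 motif, against 5.19% of all 27025 promoters of that length. The YY1 motif AAGATGGCG was in 7 (10.3%), against 1.64% of all promoters, and the ETS motif in 5 (7.35%), against 4.31%. The Sp1 motif GGGCGG was in 28 (41.2%), against 38.2%. The E-box was in 6 (8.82%), against 18.3%, and TATAAA in 8 (11.8%), against 15.7%. Matches describe letters only and show no binding. Overlaps between different motifs were not removed.

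Cox4i2 and Cox6b2 were also higher in tumours, but with their highest counts in tumour 1 and not in tumour 2. Cox4i2 had 231, 103 and 59 counts in tumours and 4, 1 and 10 in livers, with a log2 fold change of 3.37 (SE 0.88, adjusted p = 0.0145, edgeR) under TMM. It made up 6.63%, 1.65% and 1.68% of its pair with Cox4i1 in tumours, against 0.0657%, 0.0267% and 0.264% in livers. Tumour 1 was highest, and every tumour exceeded every liver. The call was lost without tumour 1 (2.70, adjusted p = 0.0544) or liver 1 (3.25, adjusted p = 0.0597), and without tumour 1 the difference in mean share was 1.55 percentage points, against 3.20 with all libraries. Cox4i1 had 105, 206 and 109 TMM-scaled CPM in tumours and 486, 319 and 307 in livers, with a log2 fold change of -1.40 (adjusted p = 0.0122, edgeR) under TMM and -0.12 (adjusted p = 0.752) under library totals. Cox6b2 had 256, 122 and 221 counts in tumours and 10, 12 and 4 in livers, with a log2 fold change of 3.16 (SE 0.57, adjusted p = 0.00284, edgeR). It remained the minor form: its share of the pair with Cox6b1 was 2.91%, 0.945% and 2.24% in tumours and 0.0703%, 0.108% and 0.0379% in livers. Cox6b1 had 89.3, 140 and 99.0 CPM in tumours and 368, 306 and 279 in livers, with a log2 fold change of -1.54 (adjusted p = 0.00171, edgeR) under TMM and -0.26 (adjusted p = 0.353) under library totals. The other testis forms were nearly silent. Cox7b2 had 0 counts in all 6 libraries, and Cox8c had 1 count, in liver 2. Cox7b, the partner of Cox7b2, had 49.0, 110 and 61.7 CPM in tumours and 295, 226 and 185 in livers (log2 fold change -1.68, adjusted p = 0.00576, edgeR), with -0.40 and an adjusted p of 0.321 under library totals.

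Cox7a2l, a relative of subunit 7a that joins complexes III and IV into supercomplexes and is shortened in C57BL/6 mice, was the complex IV member nearest to no change under TMM. It had 102, 104 and 129 CPM in tumours, against 161, 112 and 136 in livers, and the groups overlapped (log2 fold change -0.28, adjusted p = 0.282, edgeR). Under library totals the direction turned, to 1.01 (adjusted p = 0.00378), with 155, 160 and 210 CPM in tumours and 101, 76.0 and 83.2 in livers. Its ratio to Cox7a2 within libraries was 2.19, 1.92 and 3.15 in tumours and 1.02, 0.992 and 1.32 in livers, with every tumour above every liver.

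Ndufa4, once assigned to complex I and now placed with complex IV, and Ndufa4l2, a paralog known as a target of the hypoxia-inducible factor HIF-1, moved in opposite directions under both scalings. Ndufa4l2 (chr10:127514967-127517154) had 4159, 1011 and 3547 counts in tumours and 54, 47 and 57 in livers, with log2 fold changes of 4.43 (SE 0.53, adjusted p = 0.000461, edgeR) under TMM and 5.72 (adjusted p = 0.000139) under library totals. Its deposited FPKM was listed at 0 in every liver. Ndufa4 (chr6:11900292-11907497) had 51.2, 118 and 53.9 TMM-scaled CPM in tumours and 475, 322 and 321 in livers, with log2 fold changes of -2.33 (SE 0.40, adjusted p = 0.0022, edgeR) under TMM and -1.05 (adjusted p = 0.0359) under library totals. Ndufa4l2 made up 62.7%, 15.7% and 57.1% of the pair in tumours, against 0.578%, 0.792% and 0.917% in livers. In deposited FPKM the share was 43.8%, 6.56% and 34.8% in tumours, so that Ndufa4l2 exceeded Ndufa4 in tumours 1 and 3 by counts per kilobase but in no tumour by FPKM. On both scales tumour 2 had the lowest share among the tumours, whereas it had the highest for the muscle forms. Endothelial and red cell marker sums were lowest in tumour 2 as well, at 6469, 3700 and 6000 CPM of total counts in tumours 1 to 3 for endothelium and 5649, 1399 and 8178 for red cells, against 139, 186 and 174 and 1128, 704 and 573 in livers. Within the endothelial list 8 of 10 markers were lowest in tumour 2 among the tumours. The exceptions were Kdr, with 215, 230 and 246 CPM of total counts in tumours, and Emcn, with 12.5, 35.3 and 14.0. The part of these cells in the Ndufa4l2 counts was not tested.

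The make-up of the nuclear members' counts differed between the groups. Complex IV took 17.3%, 17.3% and 17.7% of all nuclear members' counts in tumours, against 13.7%, 13.2% and 12.7% in livers. Complex III took 10.6%, 10.6% and 10.2% in tumours, against 13.5%, 12.6% and 12.2% in livers, and complex II 7.55%, 7.76% and 6.95% in tumours, against 8.20%, 9.73% and 9.42% in livers. These 3 shares separated the groups without overlap, while those of complexes I and V overlapped, at 24.2% ± 0.536 in tumours and 24.3% ± 0.771 in livers for complex I and at 38.3% ± 0.139 in tumours and 38.4% ± 1.16 in livers for complex V (SD, n = 3 each). Without Cox6a2, Cox7a1 and Cox8b, complex IV took 16.3%, 12.4% and 16.2% in tumours and 13.7%, 13.2% and 12.7% in livers, so that the groups overlapped through tumour 2. The complex III share stayed lower in every tumour without those genes, at 10.7%, 11.2% and 10.4%, against 13.5%, 12.6% and 12.2% in livers, and also with Uqcrq alone left out, at 9.62%, 9.44% and 9.03%, against 10.2%, 10.1% and 9.76% in livers. With Uqcrq and the muscle forms left out together, it was 9.74%, 10.01% and 9.20% in tumours, against 10.2%, 10.1% and 9.76% in livers, and the groups overlapped through tumour 2. The complex II shares overlapped without the muscle forms, at 7.64%, 8.23% and 7.08% in tumours and 8.20%, 9.73% and 9.42% in livers.

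**Figure D4:**
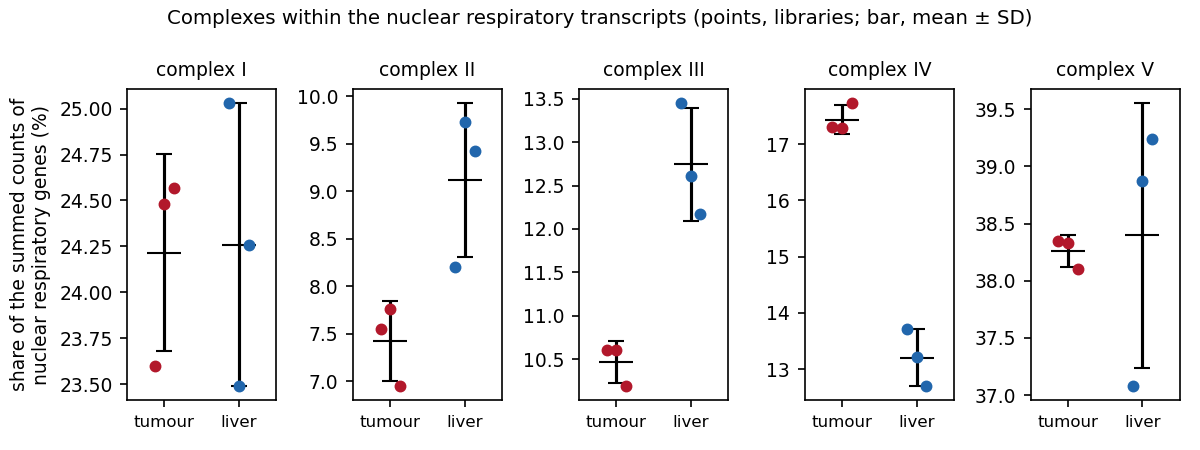
Share of each complex in the counts of all nuclear members, 1 point per library with the mean ± SD as bars, and tumours left of livers; the vertical axes differ between panels and do not start at 0. Complex IV lies higher and complexes II and III lie lower in all 3 tumours, with complex IV at 17.3%, 17.3% and 17.7% in tumours and 13.7%, 13.2% and 12.7% in livers.

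The 13 mitochondrially encoded members took 2.33%, 7.36% and 3.57% of all counts in tumours and 4.78%, 6.85% and 3.39% in livers. The groups overlapped, with tumour 2 the highest of all libraries and tumour 1 the lowest. The difference in means was -0.588 percentage points, and it was 0.455 without tumour 1 and 0.331 without liver 2. Without tumour 2 it was -2.06, the largest move from leaving out 1 library. Their ratio to the counts of nuclear members was 3.35, 5.41 and 4.88 in tumours and 4.02, 6.48 and 3.78 in livers, so the balance of the 2 genomes did not separate the groups either. Under TMM, 6 of the 13 were called lower (mt-Atp8, mt-Cytb, mt-Nd2, mt-Nd3, mt-Nd5 and mt-Nd6) and 7 did not pass, and all 13 were called lower when tumour 2 was left out. With all libraries, 28.7% of all tested genes were called lower under TMM. Under library totals their log2 fold changes lay between -0.72 and 0.67 with adjusted p of 0.235 or more. mt-Co1, the catalytic subunit of complex IV, had 6080, 17870 and 8485 TMM-scaled CPM in tumours and 27710, 38090 and 19570 in livers (log2 fold change -1.40, adjusted p = 0.0757, edgeR), and -0.14 under library totals (adjusted p = 0.84). mt-Cytb, the only subunit of complex III from mitochondrial DNA, had 2314, 7811 and 3469 CPM in tumours and 12390, 18270 and 10650 in livers (log2 fold change -1.60, adjusted p = 0.0449, edgeR), and -0.34 under library totals (adjusted p = 0.599). Its call was lost without any library other than tumour 2 (adjusted p from 0.0813 to 0.132), as were those of mt-Nd2 and mt-Nd5 (adjusted p from 0.0647 to 0.147). The calls of mt-Nd3 and mt-Nd6 were lost without some of these libraries (adjusted p from 0.0511 to 0.0662), and that of mt-Atp8 held without each.

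Within the mitochondrial members, mt-Nd1 and mt-Nd2, neighbouring complex I genes that stand in that order on the same strand (chrM:2751-3707 and chrM:3914-4951), gave a ratio that separated the groups. The ratio of mt-Nd1 to mt-Nd2 counts was 1.94, 1.39 and 1.67 in tumours and 0.993, 1.06 and 0.878 in livers. In deposited FPKM it was 2.11, 1.51 and 1.85 in tumours and 1.10, 1.18 and 0.970 in livers, with no overlap on either scale. mt-Nd1 took 16.5%, 15.3% and 15.6% of the members' mitochondrial counts in tumours, against 14.1%, 12.0% and 11.8% in livers, and mt-Nd2 took 8.54%, 11.0% and 9.33% in tumours, against 14.2%, 11.4% and 13.4% in livers. These shares separated the groups in opposite directions. Their ratio therefore had to separate the groups too, and it gives no further support. mt-Co1 relative to mt-Cytb stood at 2.63, 2.29 and 2.45 in tumours and at 2.24, 2.08 and 1.84 in livers, again with every tumour above every liver. The mt-Cytb share by itself was lower in every tumour, though tumour 2 at 16.32% lay close to liver 1 at 16.35%. Only these pairs of mitochondrial genes were compared. mt-Nd6, the only one of these genes on the minus strand, took 2.41%, 2.04% and 2.53% in tumours, against 2.32%, 2.47% and 2.62% in livers, and the groups overlapped.

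Not all mitochondrial counts stand for the same thing. CPM of total counts per kilobase lay between 0.475% and 2.00% of the deposited FPKM for mt-Atp6, mt-Co2, mt-Co3 and mt-Nd3, and between 58.1% and 119% for mt-Co1, mt-Cytb, mt-Nd1, mt-Nd2, mt-Nd4, mt-Nd5 and mt-Nd6. Of the 50-base windows of mt-Co2, mt-Co3, mt-Atp6, mt-Nd4l and mt-Nd3, 98.0% or more also occur in annotated transcripts of other genes, against 8.19% or less for mt-Nd1, mt-Nd2, mt-Nd5, mt-Nd6 and mt-Cytb. mt-Co1 and mt-Nd4 lay between, with 51.1% and 62.2%. mt-Atp8 shares no such window but lay at 0.140% and 0.237% of its FPKM in the livers where FPKM was above 0, and mt-Nd4l has an FPKM listed at 0 in every library. Counts of these 6 genes were few: mt-Co2 had 26.3, 91.2 and 30.5 TMM-scaled CPM in tumours, against 69.2, 120 and 70.2 in livers, and mt-Co3 had 16.4, 96.8 and 14.7 in tumours and 40.4, 97.3 and 52.5 in livers. mt-Atp6 had 21.6, 80.7 and 21.6 in tumours and 121, 179 and 74.2 in livers. The annotated transcripts of nuclear members overlap others less, with a median of 0.298% of windows shared and 3 members over 50% (Ndufb4c, Cox6c2 and the second identifier of Atp5o). The cause of the low counts was not tested.

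**Figure D5:**
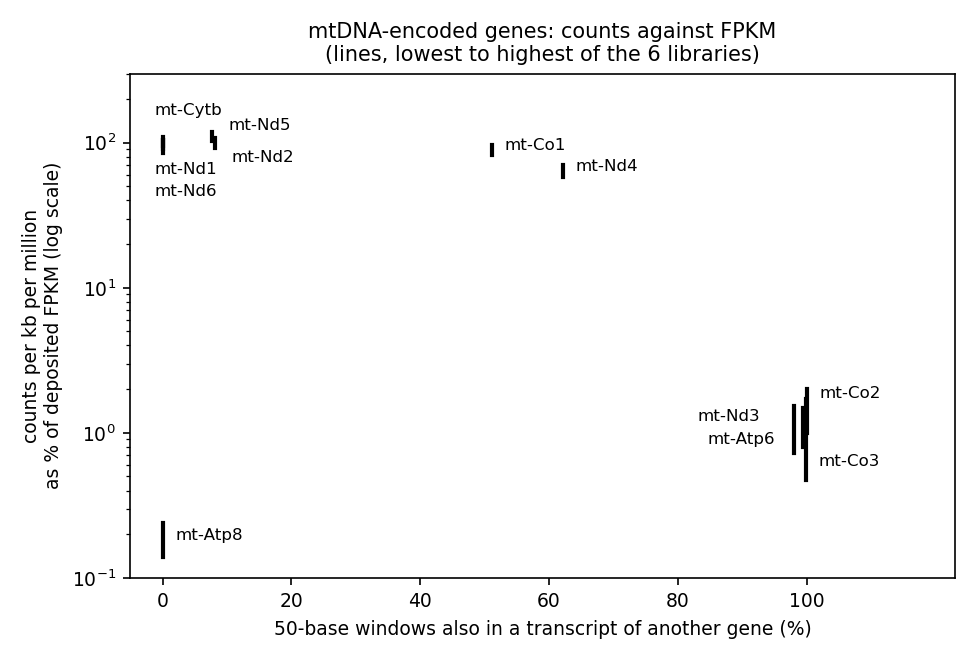
CPM of total counts per kilobase as a percent of the deposited FPKM (log scale) against the percent of 50-base windows that a mitochondrial gene shares with transcripts of other genes. Lines run from the lowest to the highest of the libraries with an FPKM above 0, tumours and livers together. Genes with 98.0% or more shared windows lie at 2.00% or below, mt-Atp8 lies low with none shared, and mt-Nd4l is not drawn because its FPKM is listed at 0.

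Genes that build or regulate the chain were read from 6 lists. Among all tested genes 28.7% were called lower and 29.5% higher under TMM, and 12.5% lower and 61.5% higher under library totals. Of 46 tested assembly factors, 36 were lower in tumours under TMM and 10 did not pass (median log2 fold change -1.28), and under library totals 13 were lower and 6 higher. Ndufaf6, a complex I assembly factor, had the largest fall among those, with 2.16, 3.83 and 2.50 CPM in tumours and 31.4, 20.2 and 19.0 in livers (log2 fold change -3.06, adjusted p = 0.000281, edgeR), and it was lower under library totals as well (-1.77, adjusted p = 0.00249). Of 22 tested genes that copy, transcribe or process mitochondrial DNA and RNA, 19 were lower under TMM (median -1.56), and 6 were lower and 2 higher under library totals. Fastkd1, an RNA-binding protein of mitochondria, had 4.73, 8.12 and 4.83 CPM in tumours and 23.6, 37.5 and 28.2 in livers, with log2 fold changes of -2.33 (adjusted p = 0.000633, edgeR) and, under library totals, -1.07 (adjusted p = 0.0185). Both genes separated the groups without overlap.

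The regulators of mitochondrial biogenesis were called in both directions. Of 10 tested, 4 were higher in tumours, 3 lower and 3 did not pass under TMM (median 0.23), against 29.5% higher and 28.7% lower among all tested genes. Under library totals 7 were higher and 1 lower, against 61.5% higher and 12.5% lower among all tested genes, so the list lay near the background under both scalings. The 4 were Gabpb1, Creb1, Nrf1 and Pprc1, and the 3 were Ppara, Ppargc1b and Gabpa, of which Gabpa was called higher under library totals. Nrf1, the factor of the motif found in 17 member promoters, had 20.9, 19.5 and 19.9 CPM in tumours and 10.1, 11.8 and 12.1 in livers, with log2 fold changes of 0.83 (adjusted p = 0.00482, edgeR) and, under library totals, 2.11 (adjusted p = 6.89e-05). Gabpb1, a subunit of the ETS-family factor known as NRF2 or GABP, had 40.3, 28.7 and 43.7 CPM in tumours, against 12.3, 10.7 and 11.0 in livers, and it was higher under both scalings (log2 fold change 1.73, adjusted p = 0.000417, and 3.02, adjusted p = 4.29e-05, edgeR). Ppara, the receptor that drives fatty acid oxidation genes in liver, was lower under both, with 0.377, 3.06 and 0.882 CPM in tumours and 95.4, 105 and 124 in livers (log2 fold change -6.23 under TMM, adjusted p = 0.000541, edgeR). Every tumour lay on the same side of every liver for each of these genes.

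Of 21 tested electron carriers and shuttles, 14 were lower under TMM and 7 did not pass (median -1.34), and 5 were lower and 1 higher under library totals. For this list and those that follow, the shares among all tested genes were 28.7% lower and 29.5% higher under TMM. Under library totals they were 12.5% lower and 61.5% higher. Prodh, which feeds electrons from proline to the chain, had 0.868, 3.09 and 1.36 CPM in tumours and 219, 378 and 191 in livers (log2 fold change -7.21, adjusted p = 0.000109, edgeR), and -5.95 under library totals (adjusted p = 0.000165). Of 14 citric acid cycle genes, 7 were lower under TMM and 7 did not pass (median -0.67), while under library totals 5 were higher and 3 (Suclg1, Suclg2 and Fh1) lower. Suclg2, the GTP-forming succinyl-CoA ligase subunit, had 57.1, 44.9 and 41.2 CPM in tumours and 426, 413 and 434 in livers (log2 fold change -3.15, adjusted p = 4.43e-05, edgeR), and -1.87 under library totals (adjusted p = 0.000148). Of 9 tested carriers, channels and uncoupling proteins, 3 (Slc25a4, Ucp2 and Ucp3) were higher, 1 lower and 5 did not pass under TMM (median -0.03), while under library totals 7 were higher and 1 lower. The part called higher under TMM lay near the share of all tested genes. Slc25a5, an ADP and ATP carrier, was the gene that fell, with 125, 112 and 98.4 CPM in tumours and 579, 609 and 494 in livers (log2 fold change -2.33, adjusted p = 0.000162, edgeR), and -1.05 under library totals (adjusted p = 0.00346). Ucp3, an uncoupling protein of muscle, had 2.57, 14.2 and 0.353 CPM in tumours, with tumour 2 again highest, and 0.0811, 0 and 0 in livers.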

How the data were processed

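Polyadenylated RNA of 3 EHE tumours and 3 livers was extracted with a Qiagen RNeasy kit and sequenced by the DNBSeq protocol, per the labels' protocols. The submitters' processing notes name HISAT2 2.1.0, Cufflinks 2.2.1.3 and the build mm10. The authors deposited whole-number counts per Ensembl gene and, for each library, FPKM values. Not given in the sources used here are the counting tool, its annotation and its use of strand and shared reads. Coordinates are those of GENCODE on GRCm38.

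Samples were grouped by title. The counts went through edgeR 4.0.16 (R 4.3.3), where filterByExpr kept 17387 of 55401 genes, and a robust quasi-likelihood fit with TMM scaling compared tumours with livers without covariates, with Benjamini-Hochberg adjustment over all genes tested. The common biological coefficient of variation was 0.393. Standard errors were obtained as the log2 fold change over the root of F. Sums, shares and ratios are given as descriptions without a test; for 3 against 3 samples the smallest two-sided p of an exact permutation test is 0.1. Libraries carried no molecular identifiers in the labels, so reads need not be independent molecules. The tests were also run on simulated counts in which few genes differed, as many raised as lowered. These data differ from that setting, so the simulation cannot decide between the scalings.

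The members and lists were chosen with earlier results of these data known. Named genes were all isoform pairs, mitochondrial members and Sdh genes, for each other complex the 2 largest called changes each way at 1 CPM or more, the member nearest to no change and the most abundant per kilobase, and the leading called gene each way of every list. Genes in the text outside this rule (such as Ndufa11, Atp5k, Uqcrb, Nrf1 and marker genes) were chosen after their values were seen. For Fastkd4 of the lists no row matched. Alternatives were RLE size factors, library totals, TMM without the 100 most abundant genes, sizes without mitochondrial genes, other low-count filters, DESeq2 1.42.0, limma-voom (limma 3.58.1), leaving out each library, a replicate block, a test for changes beyond 2-fold, and limma on log2(FPKM + 1) or log2(FPKM + 0.1). Leaving out libraries 2 of both groups, and leaving genes out of the complex shares, were chosen after seeing the data.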

Additional observations from a re-analysis of the deposited data

How the results depend on the processing

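The main fit called 77 members lower in tumours. Members called lower numbered 5 under library totals, 33 in a test against a 2-fold change, 7 with limma on log2(FPKM + 1) or log2(FPKM + 0.1), and 4 without a filter on FPKM. The other settings with all 6 libraries gave 76 to 83 lower, and every setting gave 5 to 9 higher. Leaving out 1 library gave 52 (without liver 1) to 89 (without tumour 2) lower and 5 to 6 higher, and leaving out libraries 2 of both groups gave 89 lower and 6 higher. Of 39 named genes that passed, 37 kept 1 direction under all 20 alternatives; the exceptions were Atp5g2 (0.45 under library totals, 0.40 in each FPKM fit) and Uqcrc1 (0.17 under library totals, 0.0033, 0.0025 and 0.0033 in the FPKM fits). Among those that had not passed, the sign turned for Cox7a2l (1.01 under library totals; 0.94 to 0.95 in the FPKM fits), Ndufs7 (0.62; 0.44 in each FPKM fit), mt-Co2 (0.45; 0.0202 in each FPKM fit), and, under library totals alone, mt-Co3 (0.67), mt-Nd1 (0.12) and mt-Nd4l (0.0565). DESeq2 called mt-Atp6, mt-Co1, mt-Nd1 and mt-Nd4 lower, which the edgeR test had not. The Cox6b2 share rose above liver by 1.96 percentage points per kilobase, 3.02 in raw counts and 3.80 in FPKM. No FPKM share was computed for Cox4i2. Every other paralog share kept its direction under every setting run. The mitochondrially encoded share differed by -2.06 to 0.455 percentage points with 1 library left out. The causes were not tested.

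Same-numbered tumours and livers did not deviate together (correlations of 0.02, 0.04 and -0.02), and no library correlated best with its own number, so the numbers were not taken as pairs. With the replicate number as a block, 80 members were lower and 6 higher. Under that block mt-Nd5 no longer passed, and mt-Atp6, mt-Co2, mt-Nd4 and mt-Nd4l passed.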
